A study of Mus musculus with 8 samples.

Results

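The 49 genes described here encode Wnt ligands, Frizzled and other Wnt receptors, secreted antagonists, the R-spondin axis, intracellular transducers and feedback targets. They were chosen by name, as the deposited rows whose gene symbol is one of the 49, and all 49 were found, with 106 transcripts among the 49139 of the table. The transcript with the highest average of the group means stood for its gene, which left 49 of 24499 genes. The study measured RNA by sequencing in testes at postnatal day 5 on the 129/SVJ background. It has 4 samples with the genotype Dio3KO and 4 with the genotype wild type, called biological replicates in the design text, and by its title it asked which genes of the newborn testis thyroid hormone controls. The Dio3 product is a deiodinase that breaks down active thyroid hormones. The labels name no treatment, no Cre and no other allele in either group, nor do they describe the alteration of the Dio3 gene itself.

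The deposited values are the authors' group means in RPKM, read counts divided by transcript length and by sequenced reads, plus a coefficient of variation (CV, SD over mean) per group and an adjusted p-value per transcript. Values of single samples were not in the columns used, and depth per sample is unknown. Dio3 itself was higher in the group labelled knockout, at 2.95 RPKM (CV 0.29) against 0.52 RPKM (CV 0.20) in wild type, with p = 0.0408 after adjustment in the authors' deposited table. Its level does not check the labels, so the group is called Dio3KO-labelled and every direction below rests on that label. The labels give testis as the tissue, while their extraction text names hypothalami. Summed means of 14 Sertoli cell markers were 3052 RPKM in Dio3KO-labelled and 2812 RPKM in wild-type samples, and those of 9 hypothalamic neuron markers were 3.29 and 5.51 RPKM in Dio3KO-labelled and wild-type samples.

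Wnt proteins are secreted, lipid-modified ligands that bind Frizzled receptors together with the co-receptors Lrp5 and Lrp6. In the canonical branch this stops Axin, Apc and Gsk3b from marking beta-catenin (Ctnnb1) for destruction, and beta-catenin then switches on target genes with Tcf/Lef factors. Sfrp proteins, Frzb and Wif1 bind Wnts outside the cell, and Dickkopf proteins such as Dkk1 block the co-receptors. R-spondins, through Lgr4 and Lgr5, protect Frizzleds from the ubiquitin ligases Znrf3 and Rnf43. In the mouse gonad, Wnt4, Rspo1 and beta-catenin are known for promoting the ovarian fate, and forced beta-catenin activity disturbs testis development.

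Promoter sequences are shown for the most abundant ligand, which fell, for the Frizzled with the highest average of the group means, which rose, for a feedback target that rose and another that fell, and for Sp5, a known target of beta-catenin outside the 49 genes. Each is the 250 bases before the RefSeq transcription start in GRCm38.p6, the assembly also called mm10, written 5′ to 3′ on the gene's own strand. None of the 5 windows overlaps an exon in GENCODE M21. Capitals mark CTTTGA, the only Tcf/Lef core sequence searched, or its reverse complement TCAAAG. Other forms of the Tcf/Lef motif were neither searched nor marked.
Wnt6, chr1:74771642-74771891, plus strand, which fell: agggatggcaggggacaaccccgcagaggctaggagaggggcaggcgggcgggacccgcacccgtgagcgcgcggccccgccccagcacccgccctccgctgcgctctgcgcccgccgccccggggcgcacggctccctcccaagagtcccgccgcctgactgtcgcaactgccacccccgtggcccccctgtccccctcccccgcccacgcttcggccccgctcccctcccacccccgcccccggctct
Fzd1, chr5:4758217-4758466, minus strand, which rose: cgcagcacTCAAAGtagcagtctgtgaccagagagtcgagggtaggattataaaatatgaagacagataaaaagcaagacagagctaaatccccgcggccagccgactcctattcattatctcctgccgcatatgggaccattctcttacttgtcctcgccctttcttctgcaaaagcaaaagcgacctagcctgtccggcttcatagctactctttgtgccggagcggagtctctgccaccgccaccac
Axin2, chr11:108920099-108920348, plus strand, which rose: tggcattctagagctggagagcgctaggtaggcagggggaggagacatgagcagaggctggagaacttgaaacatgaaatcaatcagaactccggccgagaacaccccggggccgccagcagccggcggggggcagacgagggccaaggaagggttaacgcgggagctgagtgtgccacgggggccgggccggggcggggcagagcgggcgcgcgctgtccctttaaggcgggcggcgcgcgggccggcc
Nkd2, chr13:73847632-73847881, minus strand, which fell: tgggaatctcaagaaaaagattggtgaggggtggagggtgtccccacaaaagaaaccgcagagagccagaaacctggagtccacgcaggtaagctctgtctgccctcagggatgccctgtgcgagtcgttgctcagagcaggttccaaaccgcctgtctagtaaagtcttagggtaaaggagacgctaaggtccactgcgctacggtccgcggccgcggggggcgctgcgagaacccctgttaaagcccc
Sp5, chr2:70474673-70474922, plus strand, which rose: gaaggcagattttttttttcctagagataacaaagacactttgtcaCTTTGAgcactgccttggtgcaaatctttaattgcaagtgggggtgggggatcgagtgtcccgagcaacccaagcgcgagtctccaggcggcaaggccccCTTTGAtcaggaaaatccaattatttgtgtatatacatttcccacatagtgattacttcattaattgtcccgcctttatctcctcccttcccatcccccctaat
The Fzd1 window held 1 match, 242 to 237 bases before the start, and the Sp5 window held 2, at 204 to 199 and at 104 to 99 bases. Of the 49 genes, 34 had a RefSeq start by symbol, with 44 windows in all, and 8 windows held CTTTGA on either strand (18.2%). Among all 32851 RefSeq windows of the same length the share was 13.8%. The thyroid hormone receptor half-site AGGTCA, searched on both strands, stood in 1 of the 44 windows, at a Tcf7 start, and in 14.0% of all windows. None of the windows printed held that half-site. The deposited transcripts carry UCSC identifiers and were not tied to these starts.

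Of the 49 genes, 41 had an average of the group means of at least 1 RPKM. A gene is said to have risen or fallen where the adjusted p in the authors' deposited table was below 0.05. By that rule 10 of the 41 rose (24.4%) and 6 fell (14.6%), where 13.6% of all 15556 genes with that average rose and 15.9% fell. The 16 that passed were 39.0% of the 41, against 29.5% of all genes. The members were chosen with earlier results of these data known, so these shares do not test for an excess. With no limit on level, 18 of the 49 passed (36.7%), Wnt2 and Sfrp5 being added, against 21.2% of 24268 genes. Level is not matched there, since 41 of the 49 but only 15556 of those 24268 genes reached 1 RPKM. The median log2 ratio of the 41 genes, Dio3KO-labelled over wild type with 0.5 RPKM added to each mean, was 0.09, and that of all genes tested was -0.05. Fzd10 and Lef1 reached the average of 1 RPKM with 1 group mean below it. In a moderated limma test rebuilt from the means and CVs, 14 of the 41 were higher and 7 lower at an adjusted p below 0.05, against 18.2% and 23.1% of all genes. A fold of at least 1.5, taken from means with 0.5 RPKM added, was then required beside the deposited p. By this rule 7 were higher and 2 lower, against 4.58% and 3.0% of all genes. Nkd2, with a fold of 0.644 on the means as deposited, was not counted. Among members with an average of at least 5 RPKM, 7 were higher and 3 lower by the deposited p. Of all 11423 genes at that level, 13.8% were higher and 17.7% lower. Fewer than the 41 members reach that level, so these counts are not out of 41. With Dio3KO-labelled means rescaled to the RPKM sum of wild type, a shift of 0.10 on the log2 scale, the same limma test called 20 higher and 6 lower, against 27.7% and 12.5% of all genes. That scaling moved the share of higher genes among all limma calls to 68.9%, against 44.0% without it and 46.2% by the deposited p.

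**Figure D1:**
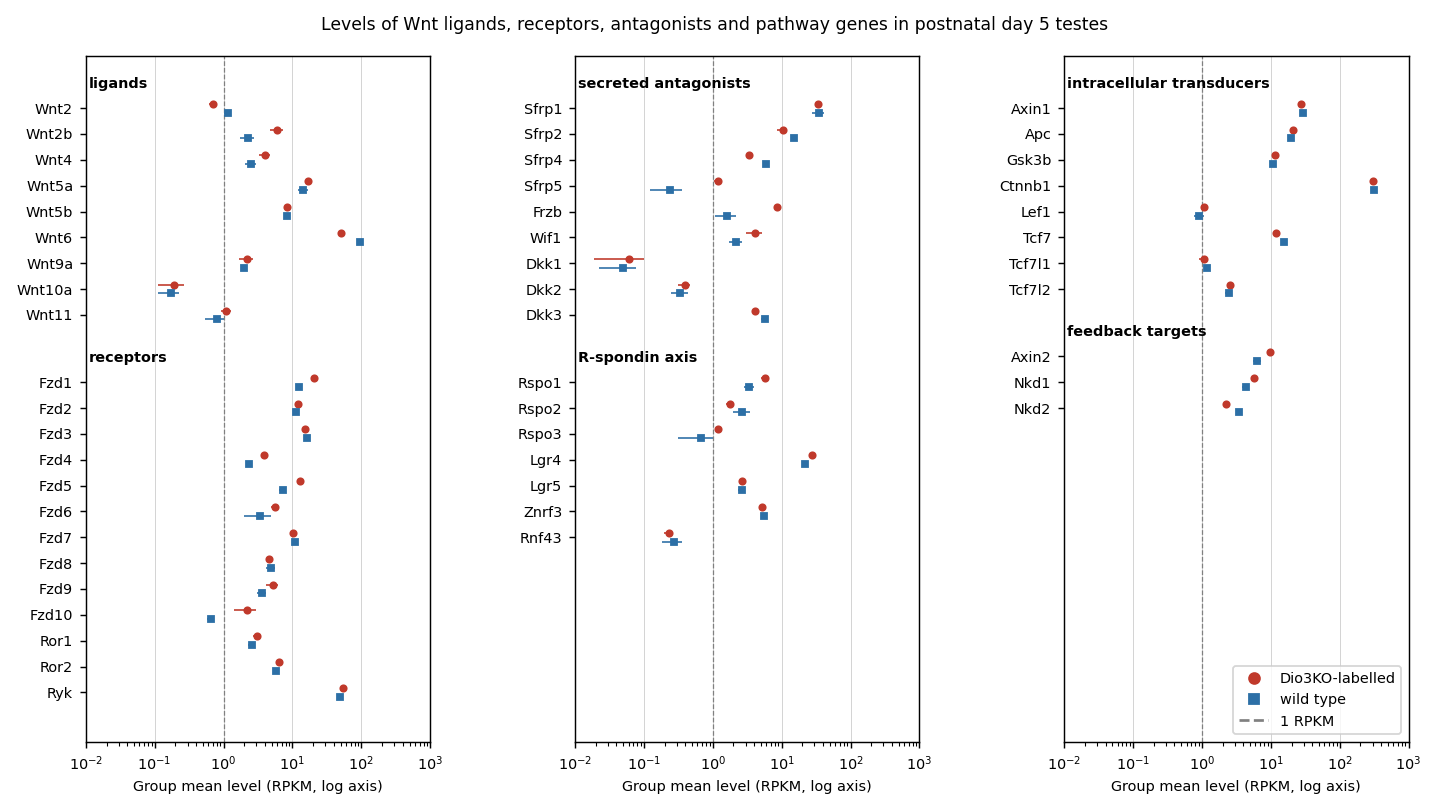
Group mean levels in RPKM on a log axis for the 49 genes by role; circles are Dio3KO-labelled and squares wild-type testes, bars are the SD computed from the deposited CV (not visible where smaller than the symbol), and the dashed line marks 1 RPKM. Wnt6 stands far above the other ligands in both groups, and Frzb, Sfrp5, Wnt2b and Fzd10 show wide gaps between the groups.

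**Figure D2:**
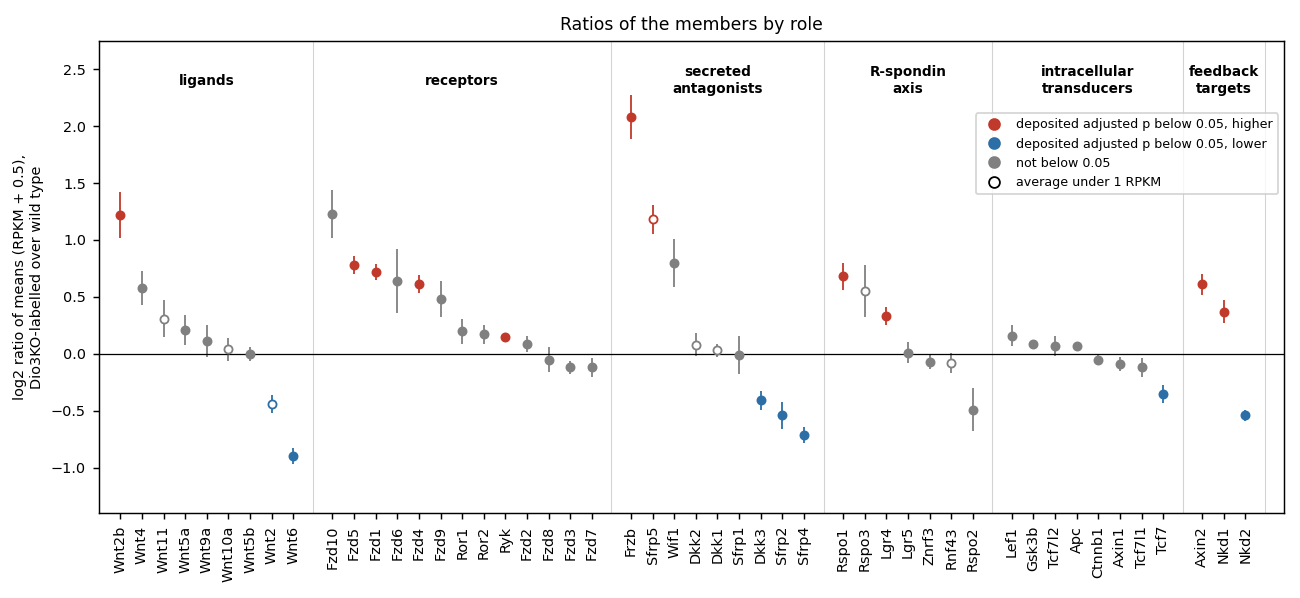
Log2 ratio of the group means (0.5 RPKM added), Dio3KO-labelled over wild type, for the 49 genes by role, with the SE computed from the deposited CVs; red and blue mark genes that rose or fell by the deposited adjusted p, grey those that did not pass, and open circles an average under 1 RPKM. Frzb has the highest ratio (2.08) and Wnt6 the lowest (-0.90), and no receptor lies among the genes that fell.

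Among the ligands, Wnt6 fell and Wnt2b rose. Wnt6, which in the mouse testis is reported to be made by Sertoli cells, fell to 50.7 RPKM (CV 0.07) in Dio3KO-labelled testes, against 94.8 RPKM (CV 0.07) in wild-type testes. Its log2 ratio was -0.90 ± 0.07 (SE computed from the CVs), with p = 0.0052 after adjustment in the authors' deposited table, and it ranked 162 from the lowest among the ratios of the 15556 genes tested. Wnt2b rose to 5.97 RPKM (CV 0.22), against 2.28 RPKM (CV 0.23) in wild type, a log2 ratio of 1.22 ± 0.20 with p = 0.0319 after adjustment in the authors' deposited table. Wnt2b lies on the minus strand at chr3:104945272-104961921 in GENCODE M21. Wnt2 also fell, at a low level, to 0.71 RPKM, against 1.14 RPKM in wild type, with p = 0.0188 after adjustment in the authors' deposited table.

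The other ligands did not pass. Wnt4, known for its part in ovarian development, was just outside, at 3.99 RPKM (CV 0.17) in Dio3KO-labelled and 2.51 RPKM (CV 0.18) in wild-type testes, a log2 ratio of 0.58 ± 0.15 with p = 0.0513 after adjustment in the authors' deposited table and 0.00437 by moderated limma. Wnt5a, a ligand known for beta-catenin-independent signalling, was at 16.8 RPKM in Dio3KO-labelled and 14.4 RPKM in wild-type testes. Its paralog Wnt5b was at 8.19 RPKM in both groups. Wnt9a had means of 2.17 and 1.98 RPKM, Wnt11 of 1.10 and 0.79 RPKM and Wnt10a of 0.19 and 0.17 RPKM in Dio3KO-labelled and wild-type testes. In GENCODE M21, Wnt6 (ENSMUSG00000033227.7) lies on the plus strand at chr1:74771892-74785322, and 6193 bases separate its end from the start of Wnt10a on the same strand. These neighbours thus differed widely in level in either group, Wnt6 being the higher.

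Of 10 further Wnt genes of the mouse, all had an average under 1 RPKM. Of these 0 passed, against 21.2% of all genes with no limit on level, a share not matched to such low levels. Wnt7b was the highest of the 10 at 0.36 RPKM in Dio3KO-labelled and 0.41 RPKM in wild-type testes, and Wnt1 was listed at 0 in wild type. Over all 19 ligand genes the means summed to 90.95 RPKM in Dio3KO-labelled and 127.5 RPKM in wild-type testes. Wnt6 made up 55.7% of that sum in Dio3KO-labelled and 74.4% in wild-type testes, and Wnt5a 18.4% and 11.3%. Without Wnt6 the sum was 40.3 RPKM in Dio3KO-labelled and 32.7 RPKM in wild-type testes. Sums of group means carry no error here, since values of single samples were not used.

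Of the 13 receptor genes, 4 rose (30.8%, against 13.6% of all genes), 0 fell (against 15.9%) and 9 did not pass. By moderated limma 6 were higher and 0 lower, where 18.2% and 23.1% of all genes were, and on rescaled means 9 were higher and 0 lower, where 27.7% and 12.5% of all genes were. Fzd1 rose to 20.7 RPKM (CV 0.07) in Dio3KO-labelled testes, against 12.4 RPKM (CV 0.07) in wild-type testes, a log2 ratio of 0.72 ± 0.07 with p = 0.0052 after adjustment in the authors' deposited table. Fzd5 rose to 12.7 RPKM (CV 0.05), against 7.17 RPKM (CV 0.10) in wild type, with a log2 ratio of 0.78 ± 0.08 and p = 0.0034 after adjustment in the authors' deposited table. The gaps of both genes between the groups were several times their SE. In GENCODE M21 both lie on the minus strand, Fzd1 at chr5:4753839-4758035 and Fzd5 at chr1:64730558-64737751. Fzd4, known as the receptor for Norrin in vessels of the eye, rose to 3.86 RPKM (CV 0.08), against 2.35 RPKM (CV 0.10) in wild type, with p = 0.0062 after adjustment in the authors' deposited table. Ryk, an atypical Wnt receptor with an inactive kinase domain and the most abundant of the 13, rose to 54.8 RPKM (CV 0.02), against 49.4 RPKM (CV 0.02) in wild type. Its log2 ratio was 0.15 ± 0.02, the smallest in size among the members that passed, with p = 0.0083 after adjustment in the authors' deposited table.

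Fzd10 had the highest ratio of the receptors but did not pass, at 2.19 RPKM (CV 0.35) in Dio3KO-labelled and 0.65 RPKM (CV 0.12) in wild-type testes. Its log2 ratio was 1.23 ± 0.21, with p = 0.0737 after adjustment in the authors' deposited table and 0.000246 by moderated limma. Fzd9 was at 5.21 RPKM in Dio3KO-labelled and 3.59 RPKM in wild-type testes, with p = 0.106 after adjustment in the authors' deposited table and 0.0127 by moderated limma. Fzd6 varied most within wild type (CV 0.42), with means of 5.60 RPKM in Dio3KO-labelled and 3.42 RPKM in wild-type testes. Fzd2 (11.9 and 11.1 RPKM), Fzd3 (15.1 and 16.4 RPKM), Fzd7 (10.04 and 10.9 RPKM) and Fzd8 (4.63 and 4.81 RPKM) lay close together in Dio3KO-labelled and wild-type testes and did not pass. The receptor tyrosine kinases Ror1 and Ror2, which bind Wnt5a, did not pass either, at 3.03 and 6.48 RPKM in Dio3KO-labelled and 2.57 and 5.70 RPKM in wild-type testes. Summed over the 10 Frizzleds, the means came to 91.9 RPKM in Dio3KO-labelled and 72.9 RPKM in wild-type testes. The most abundant Frizzled was Fzd1 in Dio3KO-labelled testes, with 22.5% of that sum, and Fzd3 in wild-type testes, also with 22.5%.

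**Figure D3:**
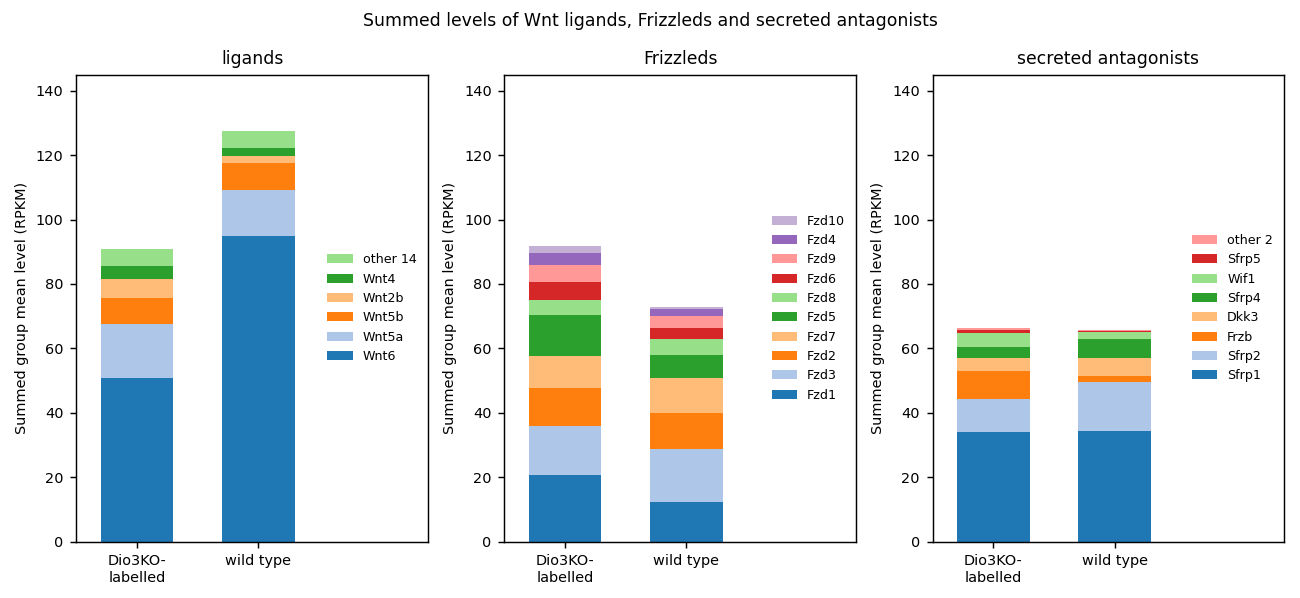
Stacked group mean levels in RPKM of the 19 Wnt ligands, the 10 Frizzleds and the 9 secreted antagonists, with Dio3KO-labelled testes left and wild type right in each panel. The ligand sums are 90.95 and 127.5 RPKM, the Frizzled sums 91.9 and 72.9 RPKM, and the antagonist sums 66.25 and 65.6 RPKM in Dio3KO-labelled and wild-type testes.

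The secreted antagonists moved in opposite directions. Frzb, also called Sfrp3, which binds Wnts through a Frizzled-like domain, rose to 8.49 RPKM (CV 0.07) in Dio3KO-labelled testes, against 1.62 RPKM (CV 0.33) in wild-type testes. Its log2 ratio of 2.08 ± 0.19 ranked 31 from the highest among the 15556 genes tested. Its p of 0.0022 after adjustment was the smallest in the authors' deposited table, shared by 30 of the genes tested. Frzb (ENSMUSG00000027004.3) lies on the minus strand at chr2:80411970-80447625 in GENCODE M21. Sfrp5, with an average below 1 RPKM, rose to 1.18 RPKM (CV 0.12), against 0.24 RPKM (CV 0.48) in wild type, with p = 0.0039 after adjustment in the authors' deposited table.

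Sfrp4, Sfrp2 and Dkk3 fell. Sfrp4 was at 3.39 RPKM (CV 0.06) in Dio3KO-labelled and 5.85 RPKM (CV 0.08) in wild-type testes, a log2 ratio of -0.71 ± 0.07 with p = 0.0094 after adjustment in the authors' deposited table. Sfrp2 was at 10.3 RPKM (CV 0.16) in Dio3KO-labelled and 15.2 RPKM (CV 0.08) in wild-type testes, with p = 0.0215 after adjustment in the authors' deposited table. Dkk3, a divergent Dickkopf protein, was at 4.16 RPKM in Dio3KO-labelled and 5.68 RPKM in wild-type testes, with p = 0.0408 after adjustment in the authors' deposited table. The 4 relatives Frzb, Sfrp5, Sfrp4 and Sfrp2 thus split evenly, the first pair higher and the other pair lower in Dio3KO-labelled testes.

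Sfrp1, the most abundant antagonist, did not pass, at 34.1 RPKM (CV 0.11) in Dio3KO-labelled and 34.4 RPKM (CV 0.21) in wild-type testes. Its log2 ratio was -0.01 ± 0.17. Wif1, a Wnt-binding protein unrelated to Frizzled, was at 4.17 RPKM (CV 0.26) in Dio3KO-labelled and 2.18 RPKM (CV 0.22) in wild-type testes, with p = 0.0725 after adjustment in the authors' deposited table and 0.00375 by moderated limma. Dkk1 (0.06 and 0.05 RPKM) and Dkk2 (0.39 and 0.34 RPKM) were low in Dio3KO-labelled and wild-type testes. Summed over the 9 antagonists, the means were 66.25 RPKM in Dio3KO-labelled and 65.6 RPKM in wild-type testes. Within these similar sums, Frzb made up 12.8% in Dio3KO-labelled and 2.47% in wild-type testes, and Sfrp2 15.6% and 23.2%.

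In the R-spondin axis, Rspo1 and the receptor Lgr4 rose. Rspo1, a ligand that promotes ovarian development in the mouse, was at 5.71 RPKM (CV 0.11) in Dio3KO-labelled and 3.38 RPKM (CV 0.16) in wild-type testes, a log2 ratio of 0.68 ± 0.12 with p = 0.0144 after adjustment in the authors' deposited table. Lgr4 was at 27.9 RPKM (CV 0.06) in Dio3KO-labelled and 22.1 RPKM (CV 0.09) in wild-type testes, with p = 0.0244 after adjustment in the authors' deposited table. The other R-spondins did not pass. Rspo2 was at 1.78 RPKM (CV 0.13) in Dio3KO-labelled and 2.70 RPKM (CV 0.28) in wild-type testes, with p = 0.1636 after adjustment in the authors' deposited table and 0.025 by moderated limma. Rspo3 was at 1.21 RPKM (CV 0.12) in Dio3KO-labelled and 0.67 RPKM (CV 0.53) in wild-type testes. Rspo1 made up 65.6% of the summed R-spondin means in Dio3KO-labelled and 50.1% in wild-type testes. Lgr5 (2.69 and 2.66 RPKM), Znrf3 (5.24 and 5.53 RPKM) and Rnf43 (0.23 and 0.27 RPKM in Dio3KO-labelled and wild-type testes) did not pass.

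Of the 8 intracellular transducers, 1 fell (12.5%, against 15.9% of all genes) and 0 rose (against 13.6%). In the limma test on rescaled means 2 of the 8 were higher and 1 lower, against 27.7% and 12.5% of all genes. With the transcript next in level 1 was higher and 1 lower, against 13.6% and 15.9% of all genes in that setting. Tcf7, which encodes the factor TCF1, fell to 12.1 RPKM (CV 0.08) in Dio3KO-labelled testes, against 15.5 RPKM (CV 0.09) in wild-type testes, a log2 ratio of -0.35 ± 0.08 with p = 0.0334 after adjustment in the authors' deposited table. Ctnnb1, the most abundant of the 49 genes, was at 309.8 RPKM (CV 0.04) in Dio3KO-labelled and 319.7 RPKM (CV 0.04) in wild-type testes and did not pass. The scaffolds of the destruction complex Axin1 (27.6 and 29.4 RPKM) and Apc (20.8 and 19.8 RPKM) and its kinase Gsk3b (11.6 and 10.8 RPKM) did not pass in Dio3KO-labelled against wild-type testes. The other Tcf/Lef factors were low, with Lef1 at 1.09 and 0.92 RPKM, Tcf7l1 at 1.06 and 1.19 RPKM and Tcf7l2 at 2.60 and 2.45 RPKM in Dio3KO-labelled and wild-type testes. Tcf7 was thus the most abundant of these factors in either group.

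All 3 genes listed as feedback targets passed, 2 of them rising and 1 falling, where 29.5% of all genes passed. With a fold of at least 1.5 also required, from means with 0.5 RPKM added, 1 was higher and 0 lower. By that rule 4.58% of all genes were higher and 3.0% lower. On the means as deposited, Nkd2 had a fold of 0.644, a fall of more than 1.5-fold. Axin2, a negative regulator widely used as a readout of beta-catenin activity, rose to 9.88 RPKM (CV 0.05) in Dio3KO-labelled testes, against 6.29 RPKM (CV 0.13) in wild-type testes, a log2 ratio of 0.61 ± 0.09 with p = 0.0088 after adjustment in the authors' deposited table. Axin2 lies on the plus strand at chr11:108920349-108950783 in GENCODE M21. Nkd1, which binds Dishevelled and dampens the signal, rose to 5.76 RPKM (CV 0.10), against 4.36 RPKM (CV 0.11) in wild type, with p = 0.0442 after adjustment in the authors' deposited table. Its relative Nkd2 fell to 2.21 RPKM (CV 0.05), against 3.43 RPKM (CV 0.06) in wild type, a log2 ratio of -0.54 ± 0.05 with p = 0.0056 after adjustment in the authors' deposited table. In the promoter windows printed above, neither Axin2 nor Nkd2 held CTTTGA or TCAAAG. The 3 genes of this role are not all that beta-catenin can induce. Of the other pathway genes, Sp5 and Ccnd1 rose, while Myc and Notum did not pass. Myc was at 5.11 and 4.61 RPKM and Notum at 0.56 and 0.41 RPKM in Dio3KO-labelled and wild-type testes. Lef1, Lgr5, Znrf3 and Rnf43, listed under other roles, did not pass either.

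**Figure D4:**
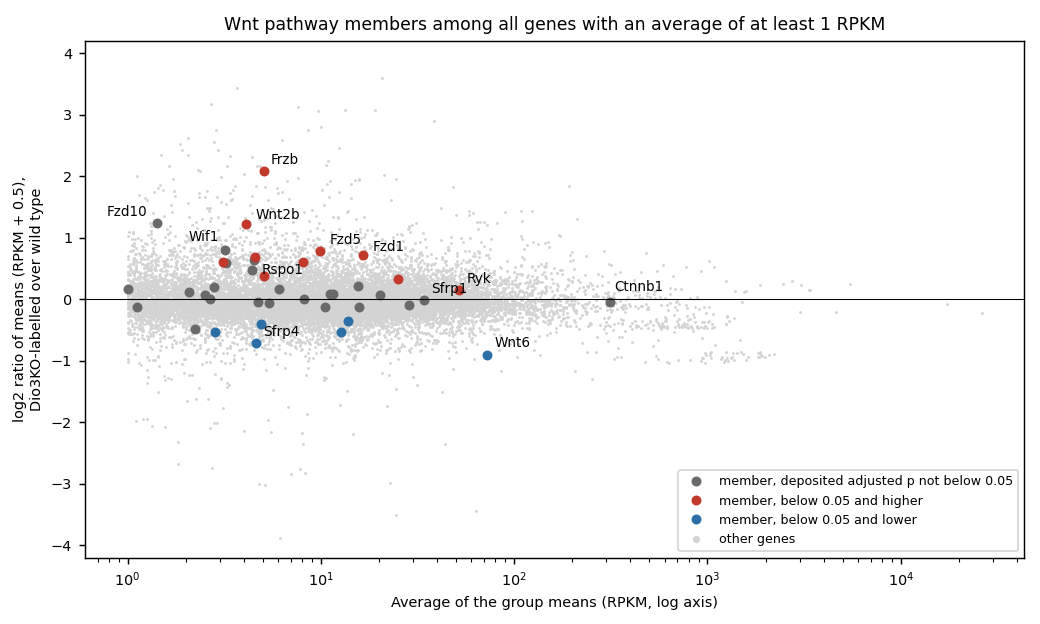
Log2 ratio of the group means (0.5 RPKM added), Dio3KO-labelled over wild type, against the average of the group means in RPKM on a log axis; grey points are all genes with an average of at least 1 RPKM and larger points the 41 Wnt pathway genes among them. Frzb (2.08) lies at the upper edge of the cloud and Wnt6 (-0.90) at the lower edge for its level, and most of the 41 lie within it.

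The median CV of the 41 genes was 0.08 in Dio3KO-labelled and 0.10 in wild-type testes, against 0.06 and 0.08 over all genes tested. In 25 of the 27 genes with more than 1 transcript, all transcripts had the same call. The exceptions were Apc and Tcf7. For Apc, 1 of 3 transcripts passed, at 18.8 RPKM in Dio3KO-labelled and 17.0 RPKM in wild-type testes with p = 0.0228 after adjustment in the authors' deposited table. For Tcf7, 4 of 5 transcripts fell, and the lowest, at 5.04 RPKM in Dio3KO-labelled and 5.99 RPKM in wild-type testes, did not pass. Among members that passed, annotated exons of Axin2, Fzd5 and Sfrp2 overlap genes on the other strand (Gm11670, Gm38058 and Gm26771). The same holds for Ctnnb1 (Ulk4, and Mir7090 on its own strand), Fzd6, Lef1, Rspo3, Tcf7l1, Wnt11 and Wnt5a, which did not pass. Since the use of strand is not stated, reads of such pairs cannot be told apart.

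In a list of 57 other Wnt pathway genes, all in the table, 38 had an average of at least 1 RPKM, and 6 of these rose (15.8%) and 6 fell (15.8%), where 13.6% of all genes rose and 15.9% fell. Sp5 and Sostdc1, both counted there, reached that average with 1 group mean below 1 RPKM. The median log2 ratio of the 38 genes was 0.02. Sp5, a transcription factor gene induced by beta-catenin, rose to 3.33 RPKM (CV 0.07) in Dio3KO-labelled testes, against 0.80 RPKM (CV 0.29) in wild-type testes, a log2 ratio of 1.56 ± 0.14 with p = 0.0023 after adjustment in the authors' deposited table. Porcn, the enzyme that attaches the lipid to Wnts, rose to 5.08 RPKM, against 3.51 RPKM in wild type. Kremen1, a receptor for Dickkopf proteins, rose to 7.56 RPKM, against 5.59 RPKM in wild type. Ccnd1, a cyclin gene that beta-catenin can induce, rose to 10.97 RPKM, against 9.29 RPKM in wild type, though its transcript next in level had p = 0.1999 after adjustment in the authors' deposited table.

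Sostdc1, a secreted antagonist of Wnt and BMP signals, fell to 0.93 RPKM in Dio3KO-labelled testes, against 2.03 RPKM in wild-type testes. Ptk7 and Vangl2, which act in planar cell polarity, fell to 40.5 and 3.84 RPKM in Dio3KO-labelled testes, against 53.6 and 4.53 RPKM in wild-type testes. Pygo1, a nuclear cofactor of beta-catenin, fell to 5.48 RPKM, against 6.84 RPKM in wild type. The other 4 that passed, named after their values were seen, were Tnfrsf19 (4.96 and 2.95 RPKM) and Daam1 (9.95 and 8.42 RPKM), which rose, and the Dishevelled genes Dvl1 (19.96 and 23.7 RPKM) and Dvl2 (20.5 and 25.5 RPKM), which fell (means in Dio3KO-labelled and wild-type testes). The casein kinases Csnk1a1 (160.9 and 157.6 RPKM) and Csnk1d (43.2 and 43.5 RPKM) and the formin Daam2 (42.2 and 33.9 RPKM) did not pass in Dio3KO-labelled against wild-type testes.

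In whole testes, fewer cells of a type and less RNA per cell cannot be told apart, and marker lists were counted by the same rule, by which 13.6% of all genes rose and 15.9% fell. All 10 cell cycle genes fell, with summed means of 318.7 RPKM in Dio3KO-labelled and 544.3 RPKM in wild-type testes. Of 9 macrophage markers 7 rose and 0 fell, with sums of 145.8 and 74.0 RPKM, and of 8 endothelial markers 4 rose and 0 fell, with sums of 74.6 and 58.7 RPKM in Dio3KO-labelled and wild-type testes. Of 8 interstitial and mesenchymal markers 2 rose and 0 fell, with sums of 2394 and 1693 RPKM, while Tcf21 was at 64.9 RPKM in both groups. Among Sertoli cell markers 3 of 14 rose and 5 fell. Of the 7 fetal Leydig cell markers with an average of at least 1 RPKM 5 fell, with sums of 63.8 RPKM in Dio3KO-labelled and 192.3 RPKM in wild-type testes. Mc2r, listed with them, was below that average. Of 9 markers of Leydig cells of all stages 4 rose and 1 fell, of 7 peritubular myoid markers 2 rose and 1 fell, and 0 of 10 germ cell markers passed. No marker of these lists had a mean of 0. Their part in the differences of the Wnt pathway genes was not tested.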

How the data were processed

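RNA sequencing of postnatal day 5 testes was deposited as 1 table of transcripts for 4 Dio3KO and 4 wild-type samples. The authors deposited group means in RPKM, the coefficient of variation of each group (a ratio of SD to mean) and adjusted p-values for the comparison of both genotypes, per the file headers. The submitters' processing notes list FastQC, Novoalign 2.08 and mm10. How reads were counted, with which annotation and strand setting, and which test was run is not stated there. Columns were tied to groups by name, and 0 other columns of per-sample values were present.

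Each of the 49139 transcripts stood 3 times among 147417 lines with equal values, and repeats were dropped. Symbols were matched with case ignored, and the transcript with the highest average stood for its gene. Genes with an average of at least 1 RPKM were counted as called at a deposited adjusted p below 0.05. Log2 ratios have 0.5 RPKM added to each mean, which understates the change of low genes, and their SE follows from the CVs with 4 samples a group by the delta method. The alternative test used limma 3.58.1 in R 4.3.3 (squeezeVar with trend, 6 residual degrees of freedom, CVs below 0.0025 set to 0.0025, Benjamini-Hochberg over all genes).

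The genes named are the 49 members and, of the other pathway genes, up to 8 called with the smallest p and up to 3 not called with the highest level. Myc and Notum, which did not pass, were named in addition, after their values were seen. Members and lists were chosen with earlier results of these data known. Depth per sample is unknown, so no counting interval was computed. Crh, listed as a hypothalamic marker, was not analysed here, and Adgre1 was matched by its older symbol Emr1.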

Additional observations from a re-analysis of the deposited data

How the results depend on the processing

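No paired analysis was possible because the columns give group means without replicate numbers, and for the same reason no replicate could be left out in turn. One setting required a fold of at least 1.5, from means with 0.5 RPKM added, beside the deposited p. There 2 of the 41 members were lower, and 713 of all genes were higher (4.58%) and 466 lower (3.0%). Of the 38 other pathway genes 2 were higher and 1 lower. With an average of at least 5 RPKM, 3 members were lower and 3 other pathway genes higher. Of all 11423 genes at that level 17.7% were lower and 13.8% higher. Fewer members and pathway genes are tested there than the 41 and 38. The limma test on rescaled means was an alternative added after the data were seen. There 20 of the 41 members and 15 of the 38 other pathway genes were higher, against 4311 of all genes (27.7%). Rescaling put the members' median log2 ratio at 0.19. Under rescaling the log2 ratio became 0.04 for Fzd8, 0.08 for Sfrp1, 0.02 for Znrf3, 0.01 for Axin1, 0.05 for Ctnnb1 and 0.09 for Csnk1d, and with ratios centred on the median of all genes 0.03 for Sfrp1 and 0.04 for Csnk1d. With the transcript next in level, it became 0.04 for Rnf43 and -0.08 for Gsk3b, and the cause was not tested. None of these genes had passed. The direction of every member that passed was the same under the pseudocounts of 0.1 and 1 RPKM and both scalings. Of these members 8 have several transcripts, and their directions were also the same with transcripts summed and with the transcript next in level. Without per-sample values, neither an outlying sample nor a batch can be seen.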
